A study of Mus musculus with 18 samples.

Results

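The mitochondrial ribosomal protein genes were taken here as all genes whose symbol is Mrpl or Mrps followed by a number and at most 1 letter, which gave 76 of the 23418 genes in the table, 47 Mrpl and 29 Mrps. All 76 passed the filter on low values (an RPKM, counted reads scaled to gene length and library depth, of at least 1 in at least 3 of 18 libraries), as did 11238 genes in all. The libraries hold polyA RNA of C57BL/6 mouse leukemia cells transformed by an MLL-AF9, MLL-AF6 or MLL-AF1p fusion construct. Cells of each construct were kept for 6 days either with 6 µM MI-2-2, a small molecule that blocks the binding of menin to MLL, or with DMSO alone, and all 6 groups carried DMSO at 0.25%. On day 3 the medium was renewed, the cell density was reset and the additions were repeated. Each group has 3 libraries. The labels give no further detail on the origin of a construct's cells, such as whether they are 1 clone, and do not say that replicates are separate cultures, so a p-value here speaks of the spread among these libraries, and that spread may be technical. The question behind the design was whether the inhibitor acts alike on cells with different fusion partners.

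The mitochondrial ribosome makes the few respiratory chain and ATP synthase subunits that mitochondrial DNA encodes, while its own proteins are encoded in the nucleus, translated in the cytosol and imported. Its large subunit forms the peptide bond and holds the exit tunnel, and its small subunit decodes the messenger. Some of its proteins have a bacterial ribosomal homolog, and others were added in mitochondria. By that division, as listed here, the table holds 30 large subunit genes with a bacterial homolog and 19 without, and 16 and 10 for the small subunit. Of the paralogs Mrps18a, Mrps18b and Mrps18c, only Mrps18c is listed with a homolog, so for these paralogs the division does not follow descent. Mrps30 and Mrps18a, named after the small subunit, are counted with the large subunit, where later structures place them. Mrps36 is left out of these sub-lists, because its product is now known as a component of the 2-oxoglutarate dehydrogenase complex.

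Promoter windows, from 250 bases before to 50 bases after the start, were found for 67 of the 76 genes by symbol in RefSeq's GRCm38.p6 annotation (73 windows). The genes lie on 17 chromosomes, so that common sequence at their starts is not common position. The 150 bases from 120 before the start are shown for 6 genes. Mrpl33 and Mrpl24 fell in all 3 constructs in each processing setting tried, Mrpl32 fell in all 3 in the chosen setting and has 4 matches to 1 motif, Mrpl52 rose in MLL-AF6, and Mrps11 and Mrpl46 begin 42 bases apart on opposite strands. Capitals mark matches, on either strand, to any of 8 motifs: CACGTG (E-box, bound by Myc), CCGGAAG (ETS family, including GABP), GCGCATGC (core of the NRF1 site), AAGATGGC (YY1), GGGCGG (the GC box), CCAAT (the CCAAT box), TATAAA (the TATA box) and TGACGTCA (the cAMP response element, CRE). Matches of 1 motif can overlap each other, as in Mrpl32.
Mrpl33, chr5:31613831-31613980, plus strand: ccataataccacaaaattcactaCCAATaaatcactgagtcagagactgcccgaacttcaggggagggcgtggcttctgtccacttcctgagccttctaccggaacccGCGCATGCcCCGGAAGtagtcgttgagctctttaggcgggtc
Mrpl24, chr3:87919424-87919573, plus strand: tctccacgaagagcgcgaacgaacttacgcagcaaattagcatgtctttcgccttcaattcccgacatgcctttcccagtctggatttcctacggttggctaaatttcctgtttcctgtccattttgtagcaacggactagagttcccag
Mrpl32, chr13:14613008-14613157, minus strand: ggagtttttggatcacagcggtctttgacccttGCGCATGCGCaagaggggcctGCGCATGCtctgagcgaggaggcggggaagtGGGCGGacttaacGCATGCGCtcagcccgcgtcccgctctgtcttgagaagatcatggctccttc
Mrpl52, chr14:54426789-54426938, plus strand: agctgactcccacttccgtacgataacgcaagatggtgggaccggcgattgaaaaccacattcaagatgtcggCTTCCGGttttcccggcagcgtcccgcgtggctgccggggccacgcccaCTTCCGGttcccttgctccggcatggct
Mrps11, chr7:78783011-78783160, plus strand: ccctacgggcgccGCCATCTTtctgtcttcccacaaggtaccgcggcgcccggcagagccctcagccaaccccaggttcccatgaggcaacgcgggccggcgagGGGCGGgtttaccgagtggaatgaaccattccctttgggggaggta
Mrpl46, chr7:78783060-78783209, minus strand: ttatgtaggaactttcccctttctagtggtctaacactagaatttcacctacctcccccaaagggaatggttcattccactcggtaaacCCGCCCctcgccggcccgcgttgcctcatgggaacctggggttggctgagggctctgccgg

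Mrpl33 has a CCAAT match, an NRF1 core and an ETS match, Mrpl32 has 4 NRF1 cores and a GC box, and Mrpl24 has none of the 8 in these 150 bases. Over the full windows, the ETS letters were present in 35.8% of the 67 genes, against 21.6% of 8349 tested genes with a window and 9.93% of 27025 genes in all. YY1 letters were present in 17.9% against 5.76% and 3.19%, and the NRF1 core in 11.9% against 6.48% and 3.05%. GC boxes were less frequent (49.3% against 69.4% of tested genes), as was the E-box (7.46% against 12.3%). CCAAT (40.3% and 43.6%), TATAAA (7.46% and 8.29%) and the CRE (2.99% and 3.77%) differed little in share from the tested genes. These shares describe letters in a window and were not tested, and a match is not a bound site. The median log2 response in MLL-AF9 was −0.21 in the 24 genes with the ETS letters and −0.33 in the 43 without, and −0.33 and −0.27 in the 12 with and 55 without YY1 letters.

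Depth was 21.18 to 30.67 M counted reads per library in MLL-AF9 and MLL-AF6 and 48.88 to 56.3 M in MLL-AF1p, and the lowest read count of any of the 76 genes in any library was 171, for Mrpl47 (median 1229, highest 9348). As a check of cell type, 7 myeloid genes such as Elane, Prtn3 and Itgam summed to between 2290 and 8890 RPKM in every library, while 8 T and B cell genes summed to at most 0.496 RPKM. The myeloid sum was 2300–2520 with MI-2-2 against 5920–8890 with DMSO for MLL-AF9 and 2290–2810 against 5270–5520 for MLL-AF6. For MLL-AF1p the groups overlapped (6600–7050 against 6160–8600). Genes with high RPKM such as Elane dominate this sum, and the 7 genes did not move together. At an adjusted p under 0.05 (limma, described below), 3 rose and 4 fell for MLL-AF9. The counts were 2 and 4 for MLL-AF6, then 1 and 0 for MLL-AF1p. Mean RPKM of Itgam went from 31.86 with DMSO to 147.8 with MI-2-2, 75.33 to 161.0 and 57.16 to 97.43 in the same order. That of Elane went from 4916 to 1087, 2264 to 916.8 and 3748 to 2920. With MI-2-2, the summed RPKM of 8 neutrophil genes was 24700–28700 against 2870–4050 for MLL-AF9, 18700–20500 against 2260–3110 for MLL-AF6 and 30800–35700 against 3360–3810 for MLL-AF1p. That of 8 monocyte and macrophage genes was 4240–5490 against 560–1890, 9860–14100 against 1980–4060 and 4130–4590 against 634–747. The part of this change of cell state in the results below was not tested, and in bulk RNA fewer cells of a type and less RNA per cell cannot be told apart.

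The genes differed widely in level. Mean RPKM over the 18 libraries ran from 4.436 to 222.6 with a median of 33.03. Highest were Mrpl33 (222.6), the small subunit gene Mrps21 (167.5) and Mrpl20 (86.61), and lowest were Mrpl1 (4.436), Mrpl15 (5.573) and Mrps25 (5.653). RPKM is a level per length, and yet long gene models had low levels: over the 76 genes, whose model lengths ran from 409 to 7892 bases, Spearman's rho between mean RPKM and length was −0.708, given as a description without a test. The response to MI-2-2 described next had a rho between −0.0885 and 0.0605 with length or level in the 3 constructs.

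All 76 genes together took a small share of the counted reads, and its mean was lower with MI-2-2 in each construct. In MLL-AF9 the share was 0.344%, 0.400% and 0.344% in the DMSO libraries and 0.286%, 0.301% and 0.283% with MI-2-2, a mean of 0.362% ± 0.0324 against 0.290% ± 0.00943 (SD, n = 3). In MLL-AF6 it was 0.286%, 0.333% and 0.323% against 0.265%, 0.292% and 0.271%, or 0.314% ± 0.0247 against 0.276% ± 0.0141. In MLL-AF1p it was 0.348%, 0.357% and 0.347% against 0.329%, 0.335% and 0.327%, or 0.351% ± 0.00573 against 0.330% ± 0.00381. The groups did not overlap in MLL-AF9 or MLL-AF1p, and in MLL-AF6 the lowest DMSO library lay below the highest MI-2-2 library. The second DMSO library of MLL-AF9 was the highest of all 18. The shares were 0.250% and 0.198% for the large and 0.109% and 0.0890% for the small subunit in MLL-AF9. Over the same libraries the cytosolic ribosomal proteins took a mean of 10.7% with DMSO and 5.42% with MI-2-2 for MLL-AF9, 6.55% and 4.63% for MLL-AF6, then 8.14% and 5.96% for MLL-AF1p.

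**Figure D1:**
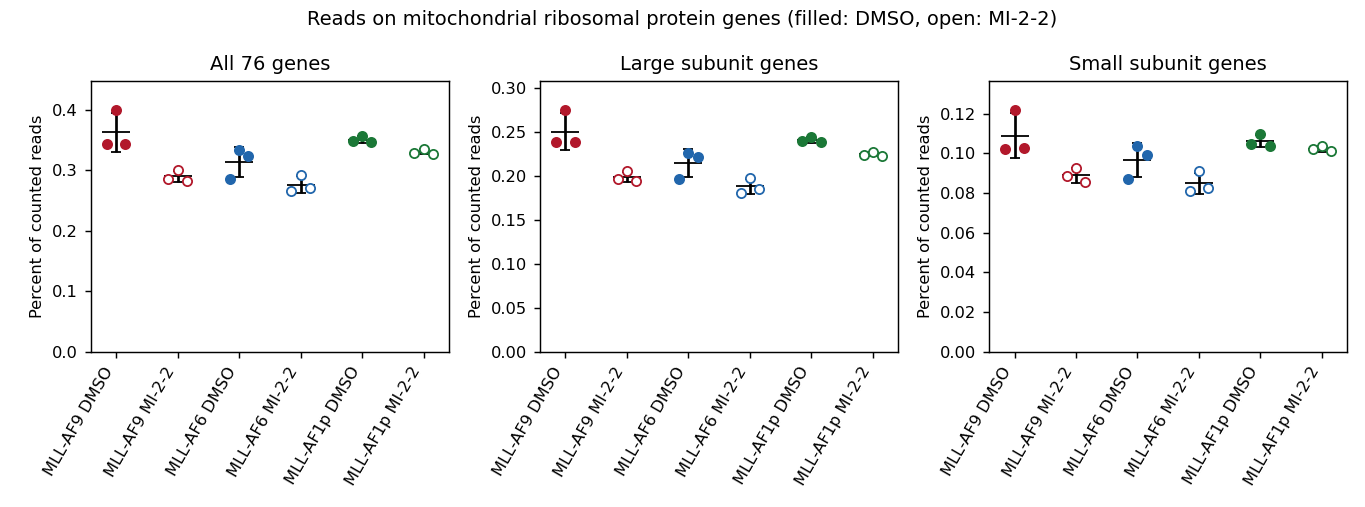
Share of counted reads, in percent, on the 76 genes (left), the large subunit genes (middle) and the small subunit genes (right) in each of 18 libraries; filled points are DMSO, open points MI-2-2, with the mean and SD of 3 libraries. For all 76 genes, MLL-AF9 goes from a mean of 0.362% to 0.290% and MLL-AF1p from 0.351% to 0.330%.

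Gene by gene, the fall was broadest in MLL-AF9. There 46 of the 76 genes (60.5%) were lower with MI-2-2 and 0 higher at an adjusted p under 0.05 (limma on log2(RPKM + 0.5), Benjamini-Hochberg over all 11238 genes), where 27.9% of all genes were lower and 28.5% higher. At an unadjusted p under 0.05 the count higher was also 0, as it was with voom in limma on the recovered reads. The median log2 change of the 76 was −0.30, beside −0.001 for all genes tested, and 71 of the 76 lay below 0. The falls were mostly small, with 14 past −0.5 on the log2 scale and 1, Mrpl38, past 2-fold. With each of the 18 libraries left out in turn, 33 of the 46 were called every time, and without the second DMSO library of MLL-AF9 the count was 37 and the median −0.22.

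In MLL-AF6, 28 genes (36.8%) fell and 1 rose, against 38.9% and 18% of all genes, and the median of −0.14 lay beside −0.16 for all genes. The share that fell was thus near the background, and it is the share that rose that was lower. Both counts moved with the scaling: with libraries centred on their median, 16 fell and 6 rose, so that 72.7% rather than 96.6% of the called genes were lower, and with quantile normalization 15 fell and 5 rose (75%). Over all genes, 68.4% of those called were lower in the chosen setting, 58.1% with centring and 61.3% with quantile normalization. The median was −0.22 without the first DMSO library of MLL-AF6. In MLL-AF1p, 14 genes (18.4%) fell and 5 rose, against 26.3% and 19.1% of all genes, and the median was −0.04 beside −0.06. Of these 14 falls, 8 held with each library left out, and the count was 9 without the third DMSO library and 8 without the third MI-2-2 library of MLL-AF1p, while the rises numbered 3 without either. Centring gave 9 falls and 8 rises there (52.9% lower of called, against 73.7%), and MLL-AF1p fitted alone gave 25 falls and 11 rises. Calls over all genes were not counted for MLL-AF1p fitted alone, so no background share stands beside these 25 and 11. Over all genes called in MLL-AF1p, 50.7% were lower with centring and 57.9% in the chosen setting.

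**Figure D2:**
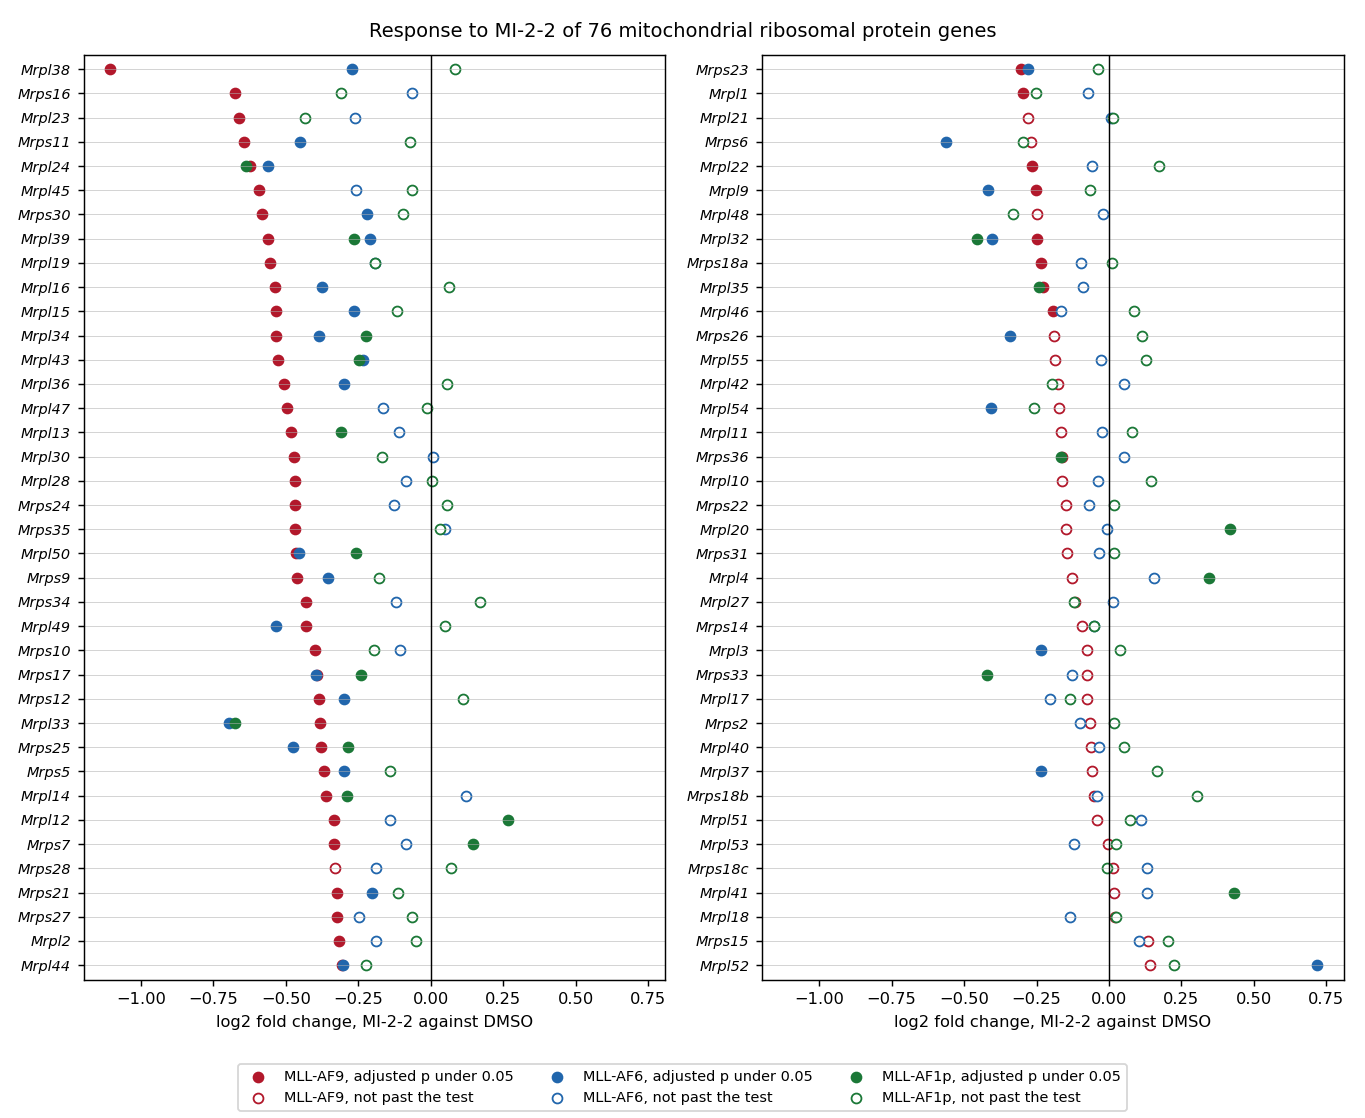
Log2 fold change of MI-2-2 against DMSO for each of the 76 genes, ordered by MLL-AF9; colours are the 3 constructs and filled points have an adjusted p under 0.05 (limma). Most MLL-AF9 points lie left of 0, with Mrpl38 farthest at −1.11, and the rises are those of MLL-AF6 (Mrpl52) and MLL-AF1p.

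All 4 sub-lists of the ribosome held falls in MLL-AF9. Lower with MI-2-2 were 20 of 30 large subunit genes with a bacterial homolog (median −0.31), 10 of 19 without (−0.23), 10 of 16 small subunit genes with a homolog (−0.35) and 5 of 10 without (−0.24). For MLL-AF6 the counts lower were 9, 9, 7 and 3 (medians −0.14, −0.21, −0.16 and −0.12), with 1 rise among the mitochondria-specific large subunit genes. MLL-AF1p had 7, 3, 1 and 2 falls (medians −0.06, 0.01, −0.06 and 0.02) and 3, 1, 1 and 0 rises. In the same order, the shares lower in MLL-AF9 were 66.7%, 52.6%, 62.5% and 50%, beside 27.9% of all genes. In MLL-AF6 they were 30%, 47.4%, 43.8% and 30%, on both sides of the 38.9% of all genes. In MLL-AF1p they were 23.3%, 15.8%, 6.25% and 20%, each under the 26.3% of all genes. Of all genes, 18% rose in MLL-AF6 and 19.1% in MLL-AF1p. No test between the sub-lists was made.

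**Figure D3:**
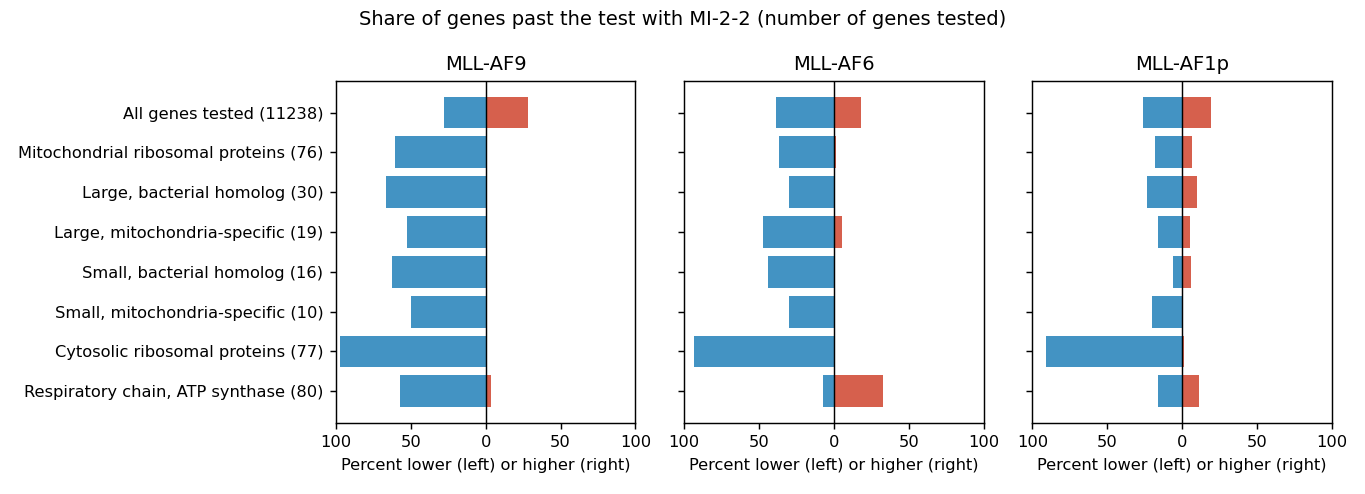
Percent of genes lower (left of 0) or higher (right of 0) with MI-2-2 at an adjusted p under 0.05 in each construct, for all genes, the 76 genes, their 4 sub-lists and 2 other gene lists, with the number tested in parentheses. In MLL-AF9, 60.5% of the 76 genes are lower, beside 27.9% of all genes.

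Of the 76 genes, 9 fell in every construct in the chosen setting: Mrpl24, Mrpl32, Mrpl33, Mrpl34, Mrpl39, Mrpl43, Mrpl50, Mrps17 and Mrps25. Of these, Mrpl24, Mrpl33, Mrpl39 and Mrps25 did so with each library left out, and Mrpl24, Mrpl33 and Mrps25 also under every other setting tried. A further 18 fell in 2 constructs and 23 in 1, and 20 were called in none, while 2 fell in 1 construct and rose in another and 4 were called only as rises. The largest fall of a gene was in MLL-AF9 for 52 genes, in MLL-AF6 for 15 and in MLL-AF1p for 9. Neither these counts nor the combinations of calls over constructs were made for all genes, so no background share stands beside them. Over the 76 genes the responses of pairs of constructs, which share no library, had Pearson's r of 0.494 (MLL-AF6 and MLL-AF9), 0.372 (MLL-AF1p and MLL-AF9) and 0.489 (MLL-AF1p and MLL-AF6), and Spearman's rho of 0.506, 0.395 and 0.380, across genes, which are not independent replicates.

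Mrpl33, a small large-subunit protein with a bacterial homolog (bL33), had the highest level of the family. Its RPKM in MLL-AF9 was 164.5, 183.5 and 167.3 with DMSO and 122.3, 148.0 and 125.4 with MI-2-2. MLL-AF6 libraries had 254.1, 304.8 and 282.5 against 167.3, 183.9 and 166.4, and MLL-AF1p libraries 353.2, 355.4 and 359.3 against 215.5, 236.4 and 217.1. Every MI-2-2 library lay below every DMSO library of its construct, and the DMSO levels of the 3 constructs did not overlap either. The log2 falls were −0.38, −0.70 and −0.68 (SE 0.08 each; limma, adjusted p = 0.000809, 3.09e-06 and 7.33e-06). Under DMSO it was higher than in MLL-AF9 by 0.70 in MLL-AF6 (adjusted p = 2.88e-06) and by 1.05 in MLL-AF1p (2.58e-08), so that with MI-2-2 the group means of 131.9, 172.6 and 223.0 RPKM kept the order of the DMSO means of 171.8, 280.5 and 356.0.

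Mrpl24, the uL24 homolog, fell by a like amount in each construct. The RPKM values were 66.4, 99.1 and 80.6 against 50.4, 55.2 and 51.9 in MLL-AF9. They were 54.5, 61.3 and 60.6 against 36.9, 43.7 and 38.7 in MLL-AF6, and 63.0, 70.2 and 60.9 against 41.4, 41.6 and 41.0 in MLL-AF1p. No MI-2-2 library overlapped the DMSO libraries of its construct. Log2 changes were −0.62, −0.56 and −0.64 (SE 0.11; limma, adjusted p = 0.00018, 0.000477 and 0.000233), and the F test for a difference between constructs gave an adjusted p of 0.892. In the later GENCODE annotation 38.2% of the exon bases of Mrpl24 are shared with Rrnad1 on the other strand, and the kit does not mark strand, so reads of the pair cannot be told apart there. Rrnad1 itself was lower in MLL-AF6 (11.4 and 7.87 RPKM, log2 −0.50, adjusted p = 8.69e-06) and was not called in MLL-AF9 (−0.001, 0.99) or MLL-AF1p (−0.06, 0.463), and its part in the values of Mrpl24 was not tested. Mrps25, a mitochondria-specific small subunit protein, went from 5.72 to 4.28, 6.45 to 4.49 and 7.175 to 5.79 mean RPKM (log2 −0.38, −0.48 and −0.29, SE 0.08, adjusted p = 0.000575, 8.03e-05 and 0.00647). It shares 58.2% of its exon bases with Nr2c2 on the other strand, whose changes of 0.24, −0.27 and −0.21 did not pass the test (adjusted p = 0.142, 0.0988 and 0.219) and in MLL-AF6 and MLL-AF1p had the same sign as those of Mrps25, so reads of this pair cannot be told apart there either. The part of Nr2c2 in the values of Mrps25 was not tested. Mrpl43 shares 27.5% of its exon bases with Twnk on the other strand, which has the older name Peo1 here. Peo1 went from 9.16 to 5.58, 6.89 to 4.4 and 6.68 to 5.75 mean RPKM in MLL-AF9, MLL-AF6 and MLL-AF1p. Its part in the values of Mrpl43 was not tested either.

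Mrpl39, a large subunit protein related to a tRNA synthetase, had 29.1, 26.2 and 27.5 RPKM against 18.4, 18.7 and 18.4 in MLL-AF9, 20.9, 20.7 and 22.3 against 18.4, 18.04 and 18.5 in MLL-AF6, and 28.4, 27.4 and 27.6 against 22.6, 24.1 and 22.6 in MLL-AF1p. The treated libraries were the lower ones in each construct, and the fall was −0.56, −0.21 and −0.26 (SE 0.05; limma, adjusted p = 2.15e-07, 0.00278 and 0.00071). Mrpl32, whose product is matured by the m-AAA protease before it joins the ribosome, fell by 0.40 in MLL-AF6 and by 0.45 in MLL-AF1p (adjusted p = 0.0023 and 0.00131). In MLL-AF9 its fall of 0.25 (adjusted p = 0.0392) was not called without the second or the third DMSO library or without the first or the third MI-2-2 library of that construct (adjusted p = 0.138, 0.0749, 0.164 and 0.0622), nor with voom (0.0855). Falls of Mrpl34 (−0.22, adjusted p = 0.0299) and Mrpl50 (−0.26, 0.0217) in MLL-AF1p were lost in the same way, each when any 1 of 4 libraries of that construct was left out.

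**Figure D4:**
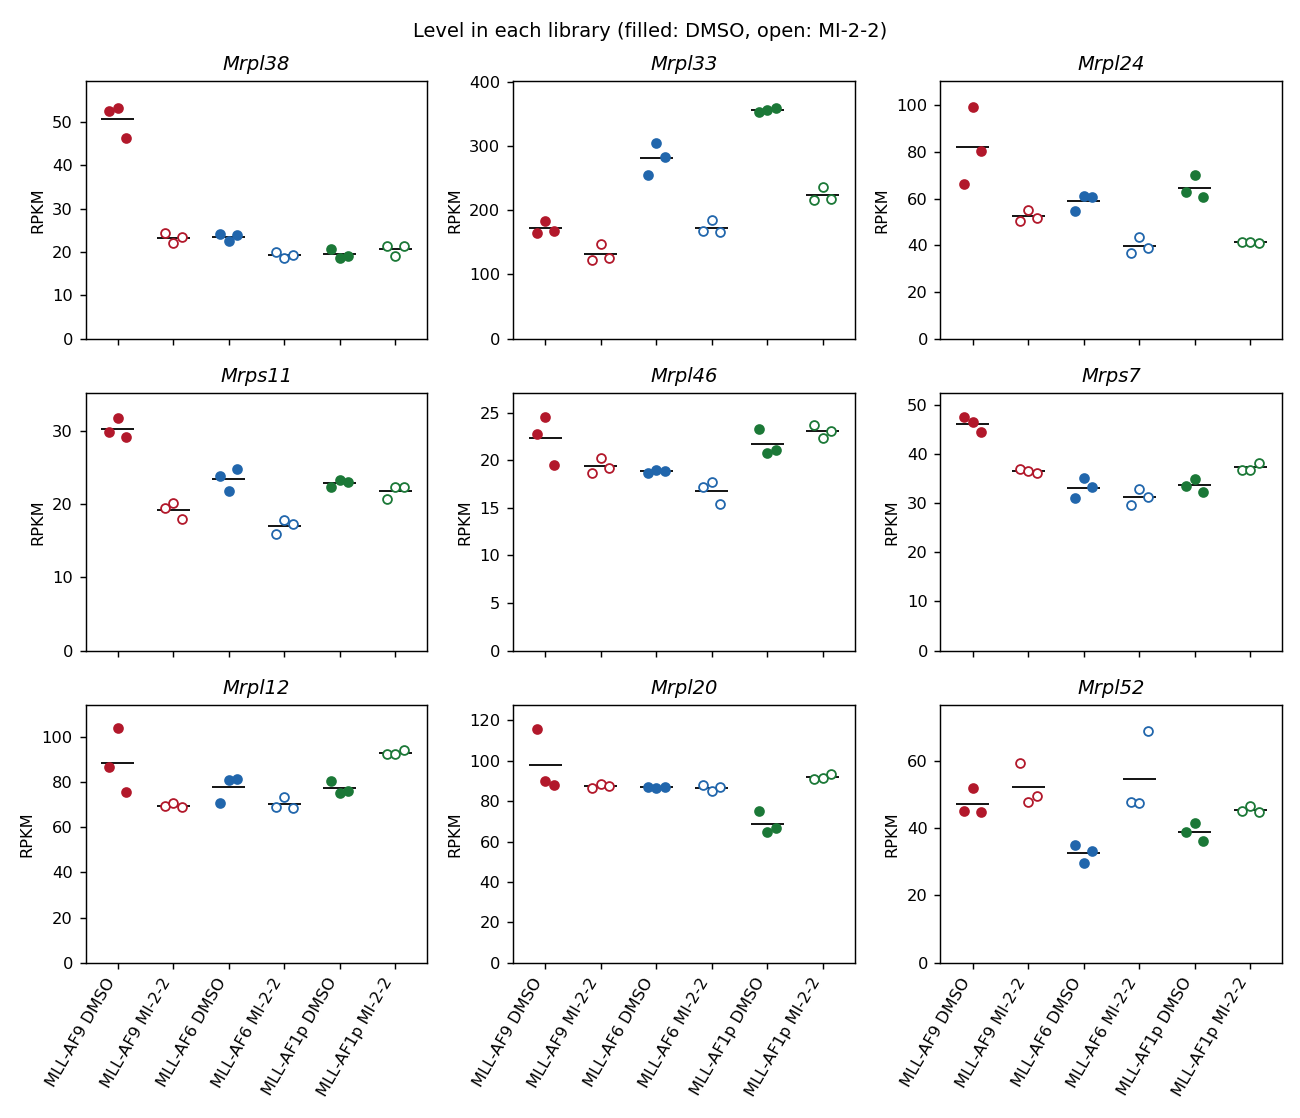
RPKM of 9 genes in each library by group; filled points are DMSO, open points MI-2-2, and the line is the mean of 3 libraries. Mrpl33 and Mrpl24 are lower with MI-2-2 in all 3 constructs, Mrpl38 goes from a mean of 50.75 to 23.3 RPKM in MLL-AF9, and Mrpl12 goes from 77.4 to 93.1 RPKM in MLL-AF1p.

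Mrpl38, a protein of the central protuberance of the large subunit, had the widest difference between constructs. In MLL-AF9 its RPKM was 52.5, 53.3 and 46.4 with DMSO and 24.5, 21.99 and 23.4 with MI-2-2. In MLL-AF6 it was 24.1, 22.4 and 23.8 against 20.1, 18.7 and 19.3, and in MLL-AF1p 20.7, 18.7 and 19.0 against 21.5, 19.1 and 21.5. Only the MLL-AF9 DMSO libraries were high: the treated MLL-AF9 libraries overlapped the DMSO libraries of MLL-AF6, and the MLL-AF1p groups overlapped each other. The log2 changes were −1.11, −0.27 and 0.08 (SE 0.07; limma, adjusted p = 3.12e-09, 0.00375 and 0.339), and the call in MLL-AF6 was lost with median centring (adjusted p = 0.0503). Its response differed from that in MLL-AF9 by 0.83 (SE 0.10) in MLL-AF6 and by 1.19 in MLL-AF1p (adjusted p = 1.86e-05 and 8.67e-07). Under DMSO it was −1.10 in MLL-AF6 and −1.36 in MLL-AF1p relative to MLL-AF9 (adjusted p = 3.88e-09 and 3.24e-10).

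The F test found a response that differed between constructs for 26 of the 76 genes (34.2%), below the 52.8% of all genes. Pairwise, the response was higher, that is less negative or more positive, in MLL-AF6 than in MLL-AF9 for 11 genes and lower for 1 (Mrpl33, adjusted p = 0.0457; voom gave 0), against 9.02% and 24% of all genes. It was higher in MLL-AF1p than in MLL-AF9 for 25 and lower for 0, against 13.6% and 21.4% (at an unadjusted p under 0.05, 1 was lower, and voom gave 0). For MLL-AF1p and MLL-AF6 the counts were 11 higher and 2 lower (Mrpl14 and Mrpl52), against 19.5% and 11.6%, and without the third DMSO library of MLL-AF6 8 differed. Each construct enters 2 of these comparisons. The medians of the 76 differences were 0.14, 0.24 and 0.14, and 39 genes had the order MLL-AF9, MLL-AF6, MLL-AF1p from the most negative response. That order was not counted over all genes. Centring moved the genes that differed between MLL-AF6 and MLL-AF9 from 12 to 24.

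Among the small subunit proteins with a bacterial homolog, Mrps11 (uS11) fell in MLL-AF9 and MLL-AF6. It had 29.8, 31.7 and 29.2 RPKM against 19.4, 20.1 and 17.96 in MLL-AF9, 23.8, 21.7 and 24.7 against 15.8, 17.8 and 17.3 in MLL-AF6, and 22.4, 23.3 and 22.9 against 20.7, 22.3 and 22.3 in MLL-AF1p. In MLL-AF1p the groups were separate by a narrow gap and the change of −0.07 (SE 0.07) was not called (limma, adjusted p = 0.389), beside −0.64 and −0.45 (6.71e-07 and 3.08e-05), and the response in MLL-AF1p was higher than in MLL-AF9 by 0.57 (adjusted p = 0.000294). Mrpl46, which starts 42 bases from Mrps11 on the other strand, had changes of −0.19, −0.17 and 0.08 (adjusted p = 0.0436, 0.0782 and 0.393), with 22.3 and 19.35, 18.8 and 16.8, and 21.7 and 23.0 mean RPKM, and its call in MLL-AF9 did not hold with each library left out. Mrps24, the uS3 homolog, changed by −0.47, −0.12 and 0.06, and the difference of 0.53 between MLL-AF1p and MLL-AF9 was called (adjusted p = 0.00081). For Mrps12, the uS12 homolog at the decoding centre, the changes were −0.39, −0.30 and 0.11 (adjusted p = 0.00179, 0.00982 and 0.332), and the call in MLL-AF6 was lost with centring (0.0664) and quantile normalization (0.067).

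Mrpl49 was called lower in all constructs except MLL-AF1p. Its values were 34.2, 29.1 and 30.6 RPKM against 23.3, 24.4 and 21.7 in MLL-AF9, 27.7, 28.2 and 28.7 against 19.2, 18.1 and 20.7 in MLL-AF6, and 26.4, 23.7 and 26.2 against 26.3, 26.6 and 26.1 in MLL-AF1p. Treated libraries lay apart from DMSO libraries in MLL-AF9 and MLL-AF6 and among them in MLL-AF1p. The log2 changes were −0.43, −0.54 and 0.05 (SE 0.07; limma, adjusted p = 8.39e-05, 1.07e-05 and 0.575). The start of Mrpl49 lies 59 bases from that of Fau, a cytosolic ribosomal protein gene on the other strand, which fell in all 3 constructs with log2 changes of −0.90, −0.49 and −0.48 (adjusted p = 1.19e-06, 0.000494 and 0.000886). Such a neighbour outside the family, starting within 1000 bases, was found for 22 of the 76 genes. Of these neighbours Fau was named after its values were seen, and a link between its changes and those of Mrpl49 was not tested.

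Rises were few. Mrpl52, a mitochondria-specific large subunit protein, was the 1 gene that rose in MLL-AF6, from 35.0, 29.5 and 33.2 RPKM to 47.7, 47.4 and 69.0 (log2 0.72, SE 0.12; limma, adjusted p = 0.000161). The third treated library stood above the other pair, and the call held with each library left out. Its level of 47.2 and 52.2 RPKM in MLL-AF9 and of 38.9 and 45.5 in MLL-AF1p did not give a call (log2 0.14 and 0.23, adjusted p = 0.355 and 0.152).

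In MLL-AF1p, 3 large subunit genes rose in each setting and with each library left out. Mrpl41, a mitochondria-specific protein also described as a binding partner of Bcl2, had 12.4, 11.4 and 12.3 RPKM with DMSO and 16.4, 16.9 and 15.8 with MI-2-2 (log2 0.43, SE 0.06; limma, adjusted p = 6.39e-05). Mrpl20, the bL20 homolog, had 75.1, 64.9 and 66.7 against 91.1, 91.5 and 93.4 (0.42, SE 0.08, adjusted p = 0.000711). Mrpl4, the uL4 homolog of the exit tunnel, had 38.2, 33.0 and 35.3 against 46.0, 43.0 and 46.4 (0.34, SE 0.07, adjusted p = 0.000671). In none of the 3 did the groups overlap. All 3 had been lower under DMSO in MLL-AF1p than in MLL-AF9, with log2 differences of −0.52, −0.49 and −0.47 (adjusted p = 4.26e-06, 8.05e-05 and 1.88e-05), and with MI-2-2 the means were 16.4 and 17.8, 92.0 and 87.5, and 45.2 and 45.2 RPKM in MLL-AF1p and MLL-AF9. These responses and DMSO differences share the MLL-AF1p DMSO libraries. The start of Mrpl41 lies 935 bases from that of Pnpla7 on the other strand, which rose in all 3 constructs, by 1.05 on the log2 scale in MLL-AF9 and by 0.83 and 0.69 in the others. Pnpla7 too was named after its values were seen, and a link to the changes of Mrpl41 was not tested.

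Mrpl12 and Mrps7 were lower in MLL-AF9 and higher in MLL-AF1p. Mrpl12, the bL12 homolog of the ribosomal stalk, which also binds the mitochondrial RNA polymerase Polrmt, had 86.6, 104 and 75.6 RPKM against 69.5, 70.6 and 68.9 in MLL-AF9. Its values were 70.7, 80.8 and 81.6 against 69.0, 73.2 and 68.6 in MLL-AF6 and 80.5, 75.3 and 76.2 against 92.5, 92.5 and 94.3 in MLL-AF1p. Treated libraries lay below all DMSO libraries in MLL-AF9, overlapped them in MLL-AF6 and lay above them in MLL-AF1p. The changes were −0.34, −0.14 and 0.27 (SE 0.09; limma, adjusted p = 0.00407, 0.179 and 0.0212), and the difference of 0.60 between MLL-AF1p and MLL-AF9 was called (adjusted p = 0.00178). Mrps7, the uS7 homolog, changed by −0.33, −0.08 and 0.15 (adjusted p = 0.000122, 0.214 and 0.043), with a difference of 0.48 between those constructs (adjusted p = 0.000353). Without the second or the third DMSO library or the third MI-2-2 library of MLL-AF1p, the rise of Mrpl12 had an adjusted p of 0.0626, 0.06 and 0.0602, and its fall in MLL-AF9 had 0.0544 with that construct fitted alone. That of Mrps7 was lost without any of 10 single libraries, with adjusted p up to 0.157.

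Mrpl14, the uL14 homolog at the subunit interface, moved in its own order. Its RPKM was 73.1, 86.9 and 87.4 against 64.4, 62.4 and 64.7 in MLL-AF9 and 64.2, 58.7 and 65.5 against 52.5, 50.1 and 51.1 in MLL-AF1p, with no overlap in either. In MLL-AF6 it was 49.3, 48.6 and 51.6 against 52.1, 52.9 and 57.9, where the treated libraries were the higher ones. The log2 changes were −0.36, 0.12 and −0.29 for MLL-AF9, MLL-AF6 and MLL-AF1p (SE 0.07; limma, adjusted p = 0.000351, 0.146 and 0.00309), and the value in MLL-AF6 passed the threshold with median centring (0.0277) and quantile normalization (0.0206). The response in MLL-AF6 was higher than in MLL-AF9 by 0.48 and than in MLL-AF1p by 0.41 (adjusted p = 0.0017 and 0.0054).

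Not all large falls were tight. Mrpl23, another exit tunnel protein, had 59.5, 118 and 82.7 RPKM in MLL-AF9 DMSO against 50.8, 59.2 and 48.4 (log2 −0.66, SE 0.22; limma, adjusted p = 0.0183). Its highest value came from the second DMSO library, without which the adjusted p was 0.109 (0.0502 and 0.0611 without the first or the third MI-2-2 library), and a pseudogene named after it, Mrpl23-ps1, can share its reads. Mrps16, the bS16 homolog, had 65.8, 117 and 82.9 against 51.8, 63.1 and 47.6 (−0.68, SE 0.19, adjusted p = 0.00701), and was called with each library left out. Mrpl45, which anchors the ribosome at the inner membrane, had 49.5, 34.7 and 35.5 against 27.4, 22.6 and 28.1 (−0.59, SE 0.16, adjusted p = 0.0042). Neither was called in MLL-AF6 or MLL-AF1p.

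The paralogs Mrps18a, Mrps18b and Mrps18c occupy different places in the ribosome. Mrps18a changed by −0.23 in MLL-AF9 (SE 0.07; limma, adjusted p = 0.00899; 0.0504 without the second MI-2-2 library and 0.0821 with the construct fitted alone) and by −0.10 and 0.01 in the other constructs. Mrps18b had changes of −0.05, −0.04 and 0.30 (adjusted p = 0.803, 0.842 and 0.132), and Mrps18c of 0.01, 0.13 and −0.01 (0.885, 0.15 and 0.956). Mrps18c had the highest level of the 3, at 80.4 and 81.2 RPKM in MLL-AF9 with DMSO and MI-2-2. Mrps30 fell in MLL-AF9 from 23.1, 25.1 and 21.4 to 15.8, 15.8 and 14.4 RPKM (−0.58, SE 0.07, adjusted p = 6.89e-06) and had −0.22 in MLL-AF6 (adjusted p = 0.0189; 0.0919, 0.0516 and 0.0879 without the second DMSO or the first or the third MI-2-2 library, and 0.146 with median centring). Mrps36, outside the ribosome, had −0.16, 0.05 and −0.17 (adjusted p = 0.0304, 0.47 and 0.034), both calls being lost without single libraries (adjusted p up to 0.133 and 0.149). Pseudogenes named after it, Mrps36-ps1, Mrps36-ps2 and Mrps36-ps3, can share its reads.

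The constructs also differed in level without the inhibitor. After 6 days with DMSO alone, 31 genes (40.8%) were lower and 4 higher in MLL-AF6 than in MLL-AF9, against 24.5% and 29.1% of all genes. The median difference was −0.16 beside 0.04. In MLL-AF1p 22 (28.9%) were lower and 19 higher than in MLL-AF9 (28.6% and 36.5% of all genes), with a median of −0.03 beside 0.07. The share lower in that pair was thus near the background. MLL-AF1p had 5 (6.58%) lower and 32 higher than MLL-AF6 (23.7% and 28.8% of all genes), with a median of 0.20 beside 0.03. These comparisons share groups with each other. The count of 32 was 18 without the first DMSO library of MLL-AF6, whose share of reads on the 76 genes, at 0.286%, was the lowest of the DMSO libraries. The 4 higher in MLL-AF6 numbered 8 without that library and 2 without the third DMSO library of MLL-AF9. Centring gave 29 lower and 14 higher for MLL-AF1p against MLL-AF9 (67.4% lower of called, against 53.7%), and quantile normalization 26 and 15 (63.4%). Over all genes called in that pair, 43.9% were lower in the chosen setting, 52.6% with centring and 50.3% with quantile normalization.

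**Figure D5:**
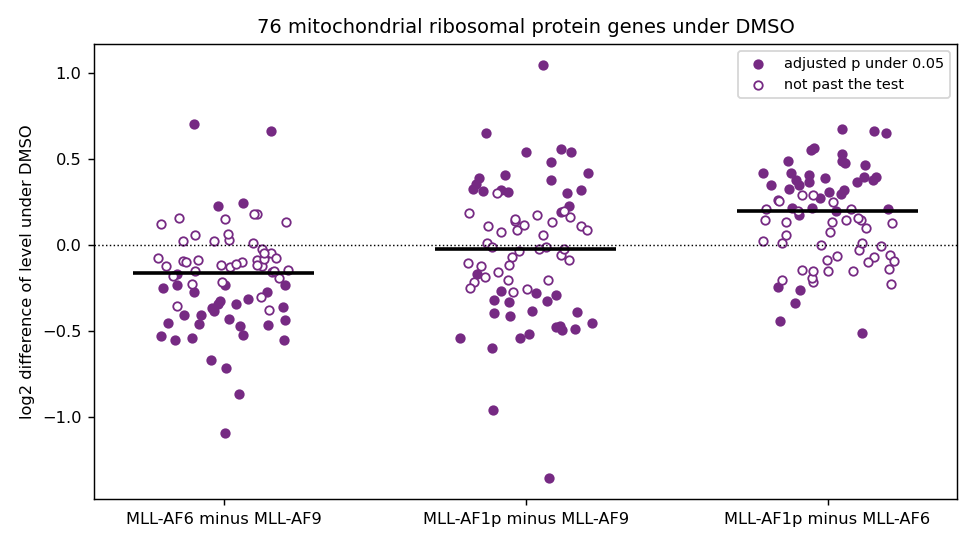
Log2 difference in level between constructs under DMSO for the 76 genes in the 3 pairs of constructs; filled points have an adjusted p under 0.05 (limma) and the bar is the median, spread sideways for display. Medians are −0.16, −0.03 and 0.20.

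Mrps21, the bS21 homolog and second highest gene of the family, was 264 ± 15.2 RPKM in MLL-AF9 DMSO, 144.6 ± 8.96 in MLL-AF6 and 135.4 ± 11.7 in MLL-AF1p (SD, n = 3). It was thus lower than in MLL-AF9, with differences of −0.87 and −0.96 (limma, adjusted p = 4.89e-08 and 1.24e-08), while the difference of −0.10 between MLL-AF1p and MLL-AF6 was not called (adjusted p = 0.255). With MI-2-2 it was 210.4 ± 4.36, 125.4 ± 7 and 125 ± 2.33. Mrpl42 was the reverse case, at 79.2, 90.2 and 77.1 RPKM in MLL-AF1p DMSO, above the 44.0 to 55.9 of the other DMSO libraries (0.65 and 0.67 against MLL-AF9 and MLL-AF6, adjusted p = 4.62e-05 and 7.39e-05). Mrpl44, an RNase III-like protein, was higher in MLL-AF1p than in both others by 0.56 and 0.49 (adjusted p = 0.000159 and 0.000799). Mrps6, the bS6 homolog, was higher in MLL-AF6 than in MLL-AF9 by 0.67 (adjusted p = 0.00183), and fell there with MI-2-2 by 0.56 (adjusted p = 0.0055). In the later annotation it shares 36.1% of its exon bases with Gm49711 and 18.8% with Slc5a3, on the same strand. The part of these genes in the values of Mrps6 was not tested.

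Other genes of mitochondrial translation were read from lists written with earlier results of these data known. Of 7 ribosomal proteins whose symbols lie outside the Mrpl and Mrps pattern, 6 fell in MLL-AF9, 4 fell and 1 rose in MLL-AF6, and 2 fell and 1 rose in MLL-AF1p. Dap3, the GTP-binding protein of the small subunit, fell in all 3, with log2 changes of −0.57, −0.32 and −0.20 (SE 0.05; limma, adjusted p = 1.47e-07, 6.95e-05 and 0.00526). Of 16 translation factors 9 fell and 1 rose, 8 and 0, and 6 and 1 in MLL-AF9, MLL-AF6 and MLL-AF1p (56.2%, 50% and 37.5% lower). Of 23 assembly and rRNA modification genes 8 fell and 2 rose, 9 and 0, and 6 and 2, so that 34.8%, 39.1% and 26.1% fell beside 27.9%, 38.9% and 26.3% of all genes, near the background in MLL-AF6 and MLL-AF1p. In that list Rbfa changed by −0.73, −0.60 and 0.13, Noa1 by −0.81, −0.53 and 0.10, and Ngrn by −0.93, −0.57 and −0.55. Rbfa and Noa1, factors of small subunit maturation, were not called in MLL-AF1p (adjusted p = 0.167 and 0.453).

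Of 19 mitochondrial tRNA synthetases, 9, 9 and 5 fell and 0, 0 and 3 rose, that is 47.4%, 47.4% and 26.3% lower beside the same 27.9%, 38.9% and 26.3% of all genes, with no excess in MLL-AF1p. For 9 genes of mitochondrial DNA and transcription the counts were 5, 5 and 2 falls and 0, 1 and 1 rises (55.6%, 55.6% and 22.2% lower), and Polrmt changed by −0.68, −0.39 and −0.11 (limma, adjusted p = 2.21e-05, 0.00269 and 0.393). Of 10 regulators of mitochondrial gene expression tested, 2, 6 and 1 fell (20%, 60% and 10%) and 2, 1 and 2 rose. Myc, whose product activates ribosome genes, was among them, at 36.2 ± 8.08 RPKM with DMSO and 14.0 ± 0.272 with MI-2-2 for MLL-AF9, 20.0 ± 7.29 and 10.4 ± 3.23 for MLL-AF6, then 21.9 ± 0.178 and 15.4 ± 0.491 for MLL-AF1p (log2 −1.32, −0.88 and −0.50, adjusted p = 0.0002, 0.00486 and 0.0984; 0.0581 in MLL-AF6 with that construct fitted alone, and 0.0344 in MLL-AF1p without the first DMSO library of MLL-AF6). The part of Myc in the other values was not tested.

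Beside the cytosolic ribosomal proteins the family's changes were smaller and fewer. Of 77 cytosolic ribosomal protein genes tested 75, 72 and 70 fell in MLL-AF9, MLL-AF6 and MLL-AF1p, with medians of −0.99, −0.48 and −0.49. These are 97.4%, 93.5% and 90.9%, beside 27.9%, 38.9% and 26.3% of all genes. The nuclear genes of the respiratory chain and ATP synthase, whose products join those made by the mitochondrial ribosome, had 46 falls and 3 rises of 80 in MLL-AF9 (median −0.26), near the 60.5% of the mitochondrial ribosomal proteins. In MLL-AF6, however, 6 of the 80 (7.5%) fell and 26 rose (median 0.11), while 28 of the 76 (36.8%) fell and 1 rose. Of all genes 38.9% fell there and 18% rose, so the share of the 76 that fell was near the background. In MLL-AF1p the counts for the 80 were 13 falls (16.2%) and 9 rises (median −0.06), beside 26.3% and 19.1% of all genes. No test of one list against another was made.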

How the data were processed

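Per the labels' protocols, polyA RNA was prepared with a TruSeq mRNA kit, which does not mark strand, and sequenced on an Illumina instrument. Bowtie2 2.0.0.7, CASAVA 1.8.2, edgeR, HTSeq and the mouse build mm9 are listed, with no role, in the submitters' processing notes. The authors deposited RPKM values per gene and library with gene lengths. RPKM times kilobases gave whole multiples of 1 read (100% of values within 0.05), so reads could be recovered. The annotation behind the gene models is not given in the sources used here. GENCODE and RefSeq tables of a later build served for names, neighbours and promoter windows. By GENCODE, 15 of the 76 genes share exon bases with a gene on the other strand and 2 with one on the same strand. Which gene a read of a shared stretch came from was not tested.

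Here, log2(RPKM + 0.5) of genes with an RPKM of at least 1 in at least 3 libraries was fitted with limma 3.58.1 (R 4.3.3), with 6 group means, a trended prior and 12 residual degrees of freedom. Contrasts were the MI-2-2 response of each construct, the differences between these responses, and constructs under DMSO. Adjusted p-values are Benjamini-Hochberg over 11238 genes. The pseudocount understates fold changes of low genes. The fit was also run on simulated data in which the noise of each library was independent. The real libraries show correlations, given below, so that run does not speak for the fit on these data.

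The genes and lists were chosen with earlier results of these data known. Named genes were, by rule, up to 6 lowest and 6 highest called genes per construct, up to 6 called one way in all 3, the 6 smallest F test p-values, up to 3 called each way per DMSO pair, the 3 highest and 3 lowest levels, ribosomal proteins outside the name pattern, the 4 largest mean changes of each other list, Myc, and Mrpl12, Mrps12, Mrpl41, Mrps30, Mrps18a, Mrps18b, Mrps18c and Mrps36. Mrpl39, Mrpl43, Mrpl46, Mrpl47, Mrps17 and the neighbours Fau, Pnpla7, Nr2c2, Rrnad1 and Slc5a3 were named after their values were seen. In all, 29 alternatives were run, of which 18 left out 1 library each. Of the marker lists, 6 stromal genes summed to at most 0.886 RPKM in any library, and Spi1 was not matched by name. Of the mitochondrial DNA list, 9 of 11 symbols were matched.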

Additional observations from a re-analysis of the deposited data

Results flagged for a closer look

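The response to MI-2-2 differed between constructs by the F test for 26 of the 76 genes (34.2%), a smaller share than the 52.8% of all genes. Those that the naming rule selected are given here with the range of their log2 response over the 3 constructs, from the lowest to the highest. The widest of these was 1.19, for Mrpl38, which was called lower in all constructs except MLL-AF1p. Mrpl12 followed with 0.60, Mrpl49 with 0.59, Mrpl52 with 0.58, Mrps11 with 0.57 and Mrpl20 with 0.56. Mrps24 had 0.53, Mrps12 0.49, Mrps30 0.48, Mrpl14 0.48, Mrps7 0.48 and Mrpl4 0.47. Ranges of 0.42 for Mrpl15, 0.41 for Mrpl41 and 0.31 for Mrpl33 were the narrowest of those named. For Mrpl33 the lowest response was in MLL-AF6, for Mrpl49 also, and for the others named in MLL-AF9. The causes of these differences were not tested.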

How the results depend on the processing

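Single-gene values under the 29 alternatives were compared for the 62 genes selected by the naming rule, 35 of them mitochondrial ribosomal protein genes. None of these 10416 values reversed: 9984 kept their side of the threshold, 292 lost a call and 140 gained one. They do not cover the whole family. Over the family, 31 of 46 falls in MLL-AF9, 13 of 28 in MLL-AF6 and 8 of 14 in MLL-AF1p were called in every alternative. Of the rises, 1 of 1 in MLL-AF6 and 3 of 5 in MLL-AF1p were. Median centring gave 16 falls and 6 rises in MLL-AF6, 9 and 8 in MLL-AF1p, medians of −0.38 in MLL-AF9 and −0.055 in MLL-AF6, 24 genes differing in response between MLL-AF6 and MLL-AF9, and 2 genes higher in MLL-AF6 than in MLL-AF9 under DMSO, as did the DMSO libraries alone (2). Quantile normalization gave 15 falls, 5 rises and a median of −0.077 in MLL-AF6. Each construct fitted alone gave 25 falls and 11 rises in MLL-AF1p. The cause was not tested. With the replicate block, falls numbered 51, 31 and 21 and rises 0, 2 and 6 in MLL-AF9, MLL-AF6 and MLL-AF1p, and 35 genes passed the F test. Calls over all genes were not counted with the block or with each construct fitted alone. Correlations of same-numbered DMSO and MI-2-2 libraries of a construct were all positive, from 0.001 to 0.557. Between replicates 1 and 2 they were all negative, from −0.565 to −0.098. DMSO replicate 1 and MI-2-2 replicate 3, of unlike number, had 0.151 to 0.342. The labels give no pairs, so the fit without the block was kept. An effect shared by libraries of 1 number was not tested.

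Leaving out 1 library gave medians of −0.35 to −0.22 in MLL-AF9, −0.22 to −0.11 in MLL-AF6 and −0.06 to −0.03 in MLL-AF1p, falls of 36 to 48, 21 to 33 and 8 to 17, and rises of 0 to 1, 1 to 2 and 3 to 6. The single rise in MLL-AF9 appeared without its second DMSO library, and the 2 in MLL-AF6 without the first DMSO library of MLL-AF9 or the second of MLL-AF1p. The F test gave 21 to 30 genes, and the pairs of responses 8 to 14 (MLL-AF6 and MLL-AF9), 20 to 28 (MLL-AF1p and MLL-AF9) and 8 to 17 (MLL-AF1p and MLL-AF6). Under DMSO, 23 to 36 genes were lower and 2 to 8 higher in MLL-AF6 than in MLL-AF9, 19 to 25 and 15 to 27 in MLL-AF1p than in MLL-AF9, and 5 to 7 and 18 to 34 in MLL-AF1p than in MLL-AF6. Thinning every library to the depth of the smallest moved none of these counts by over 1.5 times.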
